A study of Rattus norvegicus with 12 samples.

Results

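The antibiotic response that rat jejunum and liver share was described from all 12 libraries of the series, 6 from antibiotic-treated and 6 from saline-treated rats, with tissue as a block. Genes were joined by Ensembl gene identifier, and 16531 of the 20205 annotated genes listed for either tissue occur in both tables. Of these, 14187 had enough reads to be tested and 2344 did not. A shared change here means 1 treatment effect common to both tissues. For many genes the change or the values in each tissue are given beside it, and for others the common change alone.

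All animals were Wistar Han Rat, kept in specific-pathogen-free housing. Treated rats had 5 mL/kg by gavage for 2 weeks of a solution with vancomycin at 10 g/L, the antifungal amphotericin B at 0.2 g/L, and 20 g/L each of metronidazole, ampicillin and neomycin sulfate. Controls, which the labels call wild type, had as much saline. Poly(A) RNA of jejunum and liver was sequenced in 3 libraries for each tissue and treatment, which makes 4 groups of 3. The labels do not give sex, age, or whether the libraries come from separate rats, so the p-values measure the spread between these libraries, which may be technical.

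Oral mixtures of poorly and well absorbed antibiotics deplete the gut microbiota, which otherwise supplies the host with bile acid derivatives, short-chain fatty acids and other ligands. The jejunum and the liver are the first tissues an oral drug meets. Both hold oxidising enzymes (cytochromes P450, flavin monooxygenases, esterases), conjugating enzymes (glutathione, glucuronosyl and sulfo transferases) and transporters, whose genes answer to nuclear receptors such as Pxr, encoded by Nr1i2, and Car, encoded by Nr1i3. The series title asks how depletion changes such host genes.

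Reads recovered from the deposited normalized counts were 14592126 to 18322008 per library in jejunum and 15017775 to 19318616 in liver. Mitochondrially encoded genes held 26.8% to 80.7% of them in saline jejunum, 38.7% to 64.8% in jejunum with antibiotics, 6.42% to 25.0% in saline liver and 3.60% to 4.48% in liver with antibiotics. Over both tissues that share was 8.53 percentage points lower with antibiotics, a difference that did not pass a two-sided exact permutation test within tissue (p = 0.355). Jejunal saline library 3 had the fewest other reads, 3510319. Hepatocyte markers summed to 147836 to 164746 CPM in saline liver against 1301 to 2321 CPM in saline jejunum, and enterocyte markers to 2548 to 5002 CPM in saline jejunum against 291 to 319.8 CPM in saline liver, so the tissue labels match the markers. CPM are read counts per library size, scaled by the trimmed mean of M-values (TMM) within each tissue. In whole tissue fewer cells of a type and less RNA per cell cannot be told apart.

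With tissue as a block, 1973 genes (13.9%) differed between antibiotics and saline at an adjusted p under 0.05 by edgeR's quasi-likelihood test. Of these, 990 (6.98%) were higher and 983 (6.93%) were lower with antibiotics. Scaled by library totals alone, 597 were called, 546 higher and 51 lower, and the median gene then stood at 0.31 in jejunum and 0.17 in liver, so every change is given relative to the TMM scaling. The change had the same sign in jejunum and liver in 1955 of the 1973. Over all genes tested the sign was the same in 60.2%, the Spearman correlation across genes between the tissues' log2 fold changes was 0.25, and the median change was -0.05 in jejunum and 0.00048 in liver. Genes are not independent replicates, so that correlation is a description of these libraries.

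A stricter question is which genes changed in each tissue taken alone. No gene passed when the larger of the tissues' p-values was adjusted over all genes (edgeR, 0 of 14187, or 0%, with a smallest adjusted p of 0.303). At an unadjusted p under 0.05 in each tissue and the same sign, 1059 genes (7.46%) stood out, 538 higher and 521 lower. DESeq2 called 97 by the adjusted measure. The 3 saline and 3 antibiotics libraries did not overlap, in the same direction in both tissues, for 1491 genes (10.5%), of which 786 were higher and 705 lower. They separated in opposite directions in 367. Taken alone in the same fit, jejunum called 1518 genes and liver 1142, and a difference between the tissues was called for 15. A called gene is therefore called for its effect over both tissues, and that call does not by itself show a change in each. Some genes did have an adjusted p under 0.05 in each tissue taken alone, such as Rgs5 and Ppp2ca. These had 0.0129 and 0.0141 in jejunum and 0.0166 and 0.0161 in liver (edgeR). How many genes did so was not counted. Of the 1973, 562 changed by more than 1 on the log2 scale in each tissue, 364 up and 198 down.

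**Figure D1:**
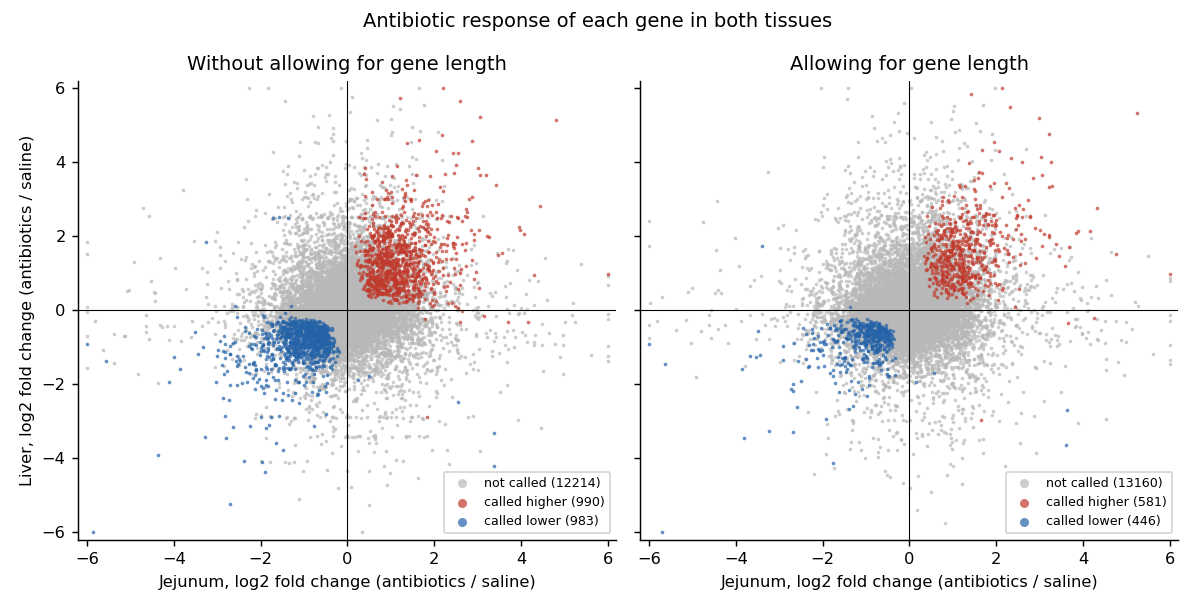
Each point is 1 of the 14187 genes tested, placed by its log2 fold change (antibiotics over saline) in jejunum (x axis) and in liver (y axis), with values beyond 6 drawn at 6. Red and blue mark genes called higher (990 and, allowing for gene length, 581) and lower (983 and 446) over both tissues, and nearly all lie where the signs match.

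Both tissues shared a relation between the change and the length of the gene. In the shortest decile of genes, of 53 to 921 bases, the median log2 fold change was -0.58 in jejunum and -0.50 in liver. In the longest decile, of 5241 to 29464 bases, it was 0.36 and 0.34. Of the shortest decile 23 were called higher and 310 lower, against 235 and 9 of the longest. Across genes, Spearman's correlation of the change with length was 0.31 in jejunum and 0.26 in liver.

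The same quantity can be read in each library as the slope of its deviation from the tissue mean on log2 gene length. Slopes were -0.0554, -0.115 and -0.191 in saline jejunum and 0.0988, 0.0938 and 0.169 in jejunum with antibiotics. In liver they were -0.111, -0.0367 and -0.125 with saline and 0.0417, 0.0494 and 0.181 with antibiotics. All 6 antibiotics libraries lay above all 6 saline libraries, in each tissue and across tissues. Deviations are taken from the tissue mean, so the saline and antibiotics means of a tissue are equal in size and opposite in sign. The order across tissues is in part set by this centring. The mean difference was 0.211 per doubling of length (two-sided exact permutation test within tissue, p = 0.005, the smallest that 400 assignments allow). Length here is the gene length, in bases, of the deposited tables, and what moves with it in these libraries was not tested.

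**Figure D2:**
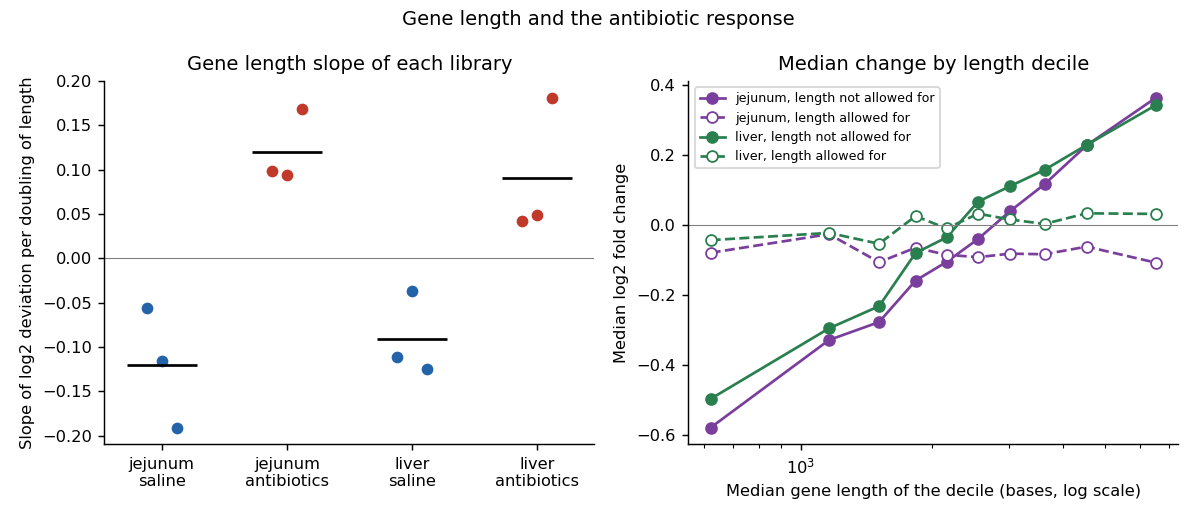
Left, the slope of log2 deviation per doubling of gene length for each library (points) with the mean of each group of 3 (lines), blue for saline and red for antibiotics, where every antibiotics library lies above 0 and every saline library below. Slopes are centred within each tissue by their definition. Right, the median log2 fold change in deciles of the genes by length, rising from -0.58 to 0.36 (jejunum) and -0.50 to 0.34 (liver) in the filled points and staying between -0.11 and 0.034 once length is allowed for (open points).

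When a smooth trend on gene length was taken out of each library, 1027 genes (7.24%) were called, 581 (4.1%) higher and 446 (3.14%) lower, and 1018 of them had the same sign in both tissues. With a straight line in place of the smooth trend they were 611 higher and 664 lower. The correlation between the tissues was then 0.17 and the share of genes with the same sign 57.4%. Called in both fits were 884 genes, 44.8% of the calls without gene length and 86.1% of those after it. The 458 rises that lost their call had a median length of 4550 bases and the 631 falls that lost it a median of 1090 bases, against 2357 over all genes tested. By the stricter measure 0 genes (0%) were called after gene length (smallest adjusted p 0.543), 34 by DESeq2 and 708 (4.99%) at an unadjusted p under 0.05. Groups separated the same way in both tissues for 1112 genes (7.84%). Jejunum alone then called 977 genes and liver 782, and the tissues differed in 70.

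Of the 884, 875 had matching signs in both tissues and in both fits, 529 higher and 346 lower. The counts depend on single libraries: after gene length 361 genes were called without jejunal antibiotics library 3, 391 without liver antibiotics 3, 417 without liver saline 3, 473 without jejunal antibiotics 1, 525 without liver antibiotics 2, 539 without liver saline 1 and 569 without liver antibiotics 1. Without gene length, 1008 were called without jejunal antibiotics 3, 1057 without liver antibiotics 3, 1099 without liver saline 3 and 1230 without jejunal antibiotics 1. Genes are named first as the 12 rises and 12 falls with the largest change in the tissue where it was smaller, among genes of at least 5 CPM in each tissue called in both fits.

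The largest shared rises included genes of cell surface signalling, adhesion and energy sensing. All 12 rose in both fits, and in all 12 the saline and antibiotics libraries did not overlap in either tissue, with gene length allowed for or not. Of all genes tested 10.5% separated the same way in both tissues, and 7.84% after gene length. The 12 were chosen for large changes in both tissues, which favours such separation. Klf9, a transcription factor induced by glucocorticoid and thyroid hormone, stood at 7.93, 10.6 and 6.11 CPM in the 3 saline jejunal libraries and 32.3, 21.4 and 36.4 CPM with antibiotics. In liver Klf9 was at 1.74, 10.7 and 3.9 CPM with saline and 34.6, 22.4 and 27 CPM with antibiotics. Every antibiotics library of Klf9 was above every saline library, whichever the tissue (log2 fold change 2.10, SE 0.34, adjusted p = 0.00498, and 2.07, SE 0.34 and 0.00986 after gene length).

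Il6st, the gp130 receptor subunit that interleukin-6 family cytokines share, was at 16.8, 10.4 and 3.8 CPM in saline jejunum and 34.3, 27.2 and 49 CPM with antibiotics. Its liver values were 3.88, 40.7 and 13.5 CPM with saline and 107, 90.2 and 111 CPM with antibiotics. Liver saline library 2 was the highest of the saline livers and still below the antibiotics livers (log2 fold change 2.11, SE 0.46, adjusted p = 0.0114, and 2.01, SE 0.45 and 0.0202 after gene length). Il13ra1, a receptor chain for interleukins 4 and 13, was at 4.82, 9.31 and 10.2 CPM in saline jejunum, 18.8, 22.3 and 20.7 CPM with antibiotics, 1.03, 8.92 and 1.98 CPM in saline liver and 37.3, 47.5 and 53.9 CPM in liver with antibiotics. The liver change of Il13ra1, 3.52, was larger than the jejunal 1.36, and that difference did not pass its own test (interaction adjusted p = 0.152). The common call held in both fits (adjusted p = 0.0104 and 0.015).

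Prkaa2, the alpha 2 catalytic subunit of the energy sensor AMPK, stood at 2.64, 3.86 and 5.02 CPM in saline jejunum and 13, 8.31 and 19.1 CPM with antibiotics. The liver libraries held 1.66, 6.83 and 2.97 CPM with saline and 18.3, 19.8 and 30.8 CPM with antibiotics (log2 fold change 2.21, SE 0.35, adjusted p = 0.00498, and 2.15, SE 0.35 and 0.0091 after gene length). Ppp2ca, a catalytic subunit of protein phosphatase 2A, moved by nearly the same amount in each tissue, 1.45 in jejunum and 1.52 in liver on the log2 scale. Its values were 15.6, 10.1 and 8.69 CPM and 33, 26.9 and 34.7 CPM in saline and antibiotics jejunum, and 5.7, 10.5 and 7.58 CPM and 20.8, 18.1 and 29.3 CPM in the livers. At 930 bases Ppp2ca is a short gene, and its change was larger after gene length (log2 fold change 1.49, SE 0.21, adjusted p = 0.00397, and 1.86, SE 0.24 and 0.0085 after gene length).

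Cds2 makes CDP-diacylglycerol for phosphoinositide synthesis, and Fam8a1 is a partner of the ER ubiquitin ligase Hrd1. Cds2 rose by 1.83 in jejunum and 2.14 in liver on the log2 scale (common adjusted p = 0.00498, 0.0091 after gene length). Fam8a1 rose by 1.84 and 2.82 (adjusted p = 0.01 and 0.0149). Slc45a4, a solute carrier, rose by 2.30 and 1.76 (adjusted p = 0.00768 and 0.0145). The largest liver change of the 12 was in Scube1, a secreted and cell surface glycoprotein, which went from 0.0791, 0.822 and 0.708 CPM to 18.1, 42.8 and 24.3 CPM there and from 1.26, 2.94 and 1.36 CPM to 11.5, 9.94 and 13.6 CPM in jejunum (log2 fold change 3.98, SE 0.58, adjusted p = 0.00434, and 3.75, SE 0.60 and 0.0091 after gene length).

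Rgs5, a regulator of G protein signalling that marks pericytes and vascular smooth muscle, was at 57.5, 45.6 and 19.4 CPM in saline jejunum and 182, 115 and 220.2 CPM with antibiotics, and at 2.37, 2.59 and 1.49 CPM and 13, 10.9 and 6.14 CPM in saline and antibiotics liver (log2 fold change 2.14, SE 0.29, adjusted p = 0.00397, and 2.52, SE 0.30 and 0.00785 after gene length). In the deposited annotation Rgs5 is ENSRNOG00000002730, chromosome 13, 87966758 to 88003035, + strand, on a genome build that is not given in the sources used here. Itga1, a collagen-binding integrin chain of smooth muscle and stroma, rose by 2.49 in jejunum and 1.80 in liver (common adjusted p = 0.00498, 0.011 after gene length). Itgb3, an integrin chain of platelets and vessels, rose by 2.31 and 2.05 (adjusted p = 0.00697 and 0.0115). Smooth muscle markers, 10 of 10 tested, summed to 2920.4 to 8835 CPM in saline jejunum and 10928 to 11958 CPM with antibiotics, while liver held 28.4 to 30.7 CPM and 20.6 to 34.4 CPM. The part of muscle in the jejunal values of Rgs5, Itga1 and Itgb3 was not tested.

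Leaving out any 1 of the 12 libraries kept the adjusted p after gene length below 0.05 for Rgs5, Scube1, Fam8a1, Itgb3, Cds2, Ppp2ca, Klf9, Prkaa2, Slc45a4, Itga1 and Il13ra1. The largest adjusted p, with the number of libraries whose omission took it past the threshold, was 0.0545 for Il6st (2 libraries).

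The largest shared falls included enzymes of drug, lipid and amino acid handling, a globin and a carbonic anhydrase. Scaled by library totals alone, without gene length, all but Ces2c of the 12 kept their call. Saline and antibiotics libraries did not overlap in either tissue for 8 of the 12, and for 5 after gene length (Cela1, Rida, Cyp2e1, Rasd1 and Ybx1-ps3), where 10.5% and 7.84% of all genes tested separated this way. These 12 too were chosen for large changes in both tissues, which favours such separation. Cyp2e1, the P450 that oxidises ethanol, acetone and paracetamol, stood at 1859, 1328 and 2009.6 CPM in saline liver and 625, 598 and 511 CPM with antibiotics. In jejunum, where it is scarce, it was at 25.2, 6.37 and 5.57 CPM with saline and 1.27, 0.326 and 0.973 CPM with antibiotics, the latter from 18, 6 and 25 reads. Each antibiotics library was below each saline library of its tissue (log2 fold change -2.59, SE 0.52, adjusted p = 0.00906, and -2.58, SE 0.51 and 0.0151 after gene length). The change was -3.87 in jejunum, on these few reads, and -1.58 in liver. That difference did not pass its own test (interaction adjusted p = 0.143). The deposited annotation places Cyp2e1 as ENSRNOG00000012458, chromosome 1, 213511874 to 213535542, + strand.

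Rida, an enzyme that clears reactive imines from amino acid breakdown, was at 4228, 1532 and 2830.0 CPM in saline liver and 737, 768 and 567 CPM with antibiotics, and at 14.9, 26.4 and 40.6 CPM and 6.84, 9.61 and 4.05 CPM in saline and antibiotics jejunum. Its level in liver was far above that in jejunum and its fall was alike, -1.99 in jejunum and -2.05 in liver (log2 fold change -2.02, SE 0.33, adjusted p = 0.00498, and -1.63, SE 0.30 and 0.0132 after gene length). Rasd1, a Ras-like protein first known from dexamethasone induction and not on the glucocorticoid list, stood at 18.1, 8.12 and 17 CPM and 4.38, 2.01 and 2.61 CPM in jejunum and at 39.2, 10.6 and 24.7 CPM and 8.06, 8.55 and 6.55 CPM in liver (log2 fold change -1.97, SE 0.33, adjusted p = 0.0051, and -1.82, SE 0.32 and 0.0113 after gene length). G0s2, an inhibitor of adipose triglyceride lipase, was at 36.7, 5.67 and 29.7 CPM and 5.43, 4.67 and 3.31 CPM in jejunum and at 482, 75.9 and 161 CPM and 82, 58.8 and 44.9 CPM in liver. Its jejunal groups did not overlap and its liver groups did (log2 fold change -2.18, SE 0.47, adjusted p = 0.011, and -1.72, SE 0.44 and 0.0335 after gene length).

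Ca3, a carbonic anhydrase abundant in fat, muscle and rat liver, was at 2803, 375 and 2243 CPM in saline jejunum and 467, 149 and 126 CPM with antibiotics. In liver it was at 1584, 1295 and 2389.8 CPM with saline and 294, 211 and 509 CPM with antibiotics. Jejunal saline library 2 lay within the range of the antibiotics jejuna, and the livers did not overlap (log2 fold change -2.62, SE 0.49, adjusted p = 0.00764, and -2.43, SE 0.49 and 0.0151 after gene length). Ces1d, a carboxylesterase of liver and fat, likewise overlapped in jejunum through saline library 2, with 202, 35 and 165 CPM and 40.9, 13.7 and 7.71 CPM in jejunum and 163, 110.2 and 213 CPM and 45, 37.6 and 37.8 CPM in liver (log2 fold change -2.35, SE 0.45, adjusted p = 0.00777, and -2.33, SE 0.44 and 0.014 after gene length). Adipocyte markers, of which 6 of 10 were tested, summed to 500.3 to 3034 CPM in saline jejunum and 235 to 569 CPM with antibiotics, and jejunal saline library 2 was the lowest of its group in Ca3, Ces1d and Cfd. In liver the sums were 1730.2 to 2563 CPM and 1733 to 2475 CPM, mostly of Pck1, which hepatocytes also make, and the fatty acid binding protein Fabp4 was at a mean of 2.02 CPM. The part of fat in the jejunal values of Ca3 and Ces1d was not tested.

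Hbb-bs, a beta globin of red cells, fell from 22.7, 2.42 and 5.16 CPM to 0.565, 1.52 and 2.06 CPM in jejunum and from 56.2, 16.8 and 32.9 CPM to 4.43, 4.67 and 5.59 CPM in liver (log2 fold change -2.84, SE 0.49, adjusted p = 0.00659, and -2.60, SE 0.49 and 0.014 after gene length). All 9 erythroid markers tested were lower in both tissues, with a median of -1.60 in jejunum and -1.65 in liver. Of them 5 fell without gene length and 3 after it, against falls of 6.93% and 3.14% of all genes tested. Their median length was 660 bases. Of the 1419 genes of 53 to 921 bases, 310 fell without gene length and 67 after it. Hba-a1 and Hba-a2, the alpha globins, fell, with common log2 changes of -1.11 and -1.22, after gene length (adjusted p = 0.0474 and 0.027). Alas2, the haem synthesis enzyme of red cell precursors, fell without gene length (-1.23, adjusted p = 0.0273) and missed the threshold after it (adjusted p = 0.0535). By library totals alone, without gene length, Hba-a1, Hba-a2 and Alas2 kept their sign and lost their call. The list summed to 239 to 767 CPM and 165 to 242 CPM in saline and antibiotics jejunum and to 2174 to 4762 CPM and 641 to 1436 CPM in liver. Globin genes are near-identical copies, so how reads were divided among them is uncertain, and the amount of blood in the samples was not tested.

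Cela1, an elastase, fell from 13, 23.5 and 10.3 CPM to 2.89, 3.96 and 4.28 CPM in jejunum and from 22.4, 17.5 and 45.5 CPM to 10.2, 5.18 and 6.96 CPM in liver (log2 fold change -2.0, SE 0.29, adjusted p = 0.00397, and -1.69, SE 0.29 and 0.0109 after gene length). Pancreatic acinar markers include Cela1, and Cela2a was the other of 9 that could be tested, at a mean of 1.03 CPM in jejunum and 0.729 CPM in liver, so the part of pancreas was not tested. Ces2c, another carboxylesterase and member of a family of close copies, overlapped between groups in each tissue, with 15.2, 117 and 90.8 CPM and 26.1, 23.6 and 12.1 CPM in jejunum and 12.1, 8.35 and 24.6 CPM and 6.49, 9.75 and 2.86 CPM in liver (log2 fold change -1.55, SE 0.45, adjusted p = 0.0358, and -1.92, SE 0.49 and 0.0352 after gene length). Ybx1-ps3 is annotated as a copy of the RNA-binding protein gene Ybx1, with which it may share reads, and was called lower in both fits (adjusted p = 0.00397 and 0.0091). Gsta3 and Mgst3, the remaining falls, are described with the glutathione transferases.

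In refits without each library in turn, the adjusted p after gene length stayed under 0.05 for Hbb-bs, Ca3, Ces1d, Cela1, Rida, Cyp2e1, Rasd1 and Ybx1-ps3. For the rest the largest adjusted p was 0.0896 for Ces2c (9 libraries), 0.0904 for G0s2 (7 libraries), 0.0882 for Gsta3 (7 libraries) and 0.0625 for Mgst3 (3 libraries). For the alpha globins it was 0.101 for Hba-a1 (10 libraries) and 0.0644 for Hba-a2 (5 libraries).

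**Figure D3:**
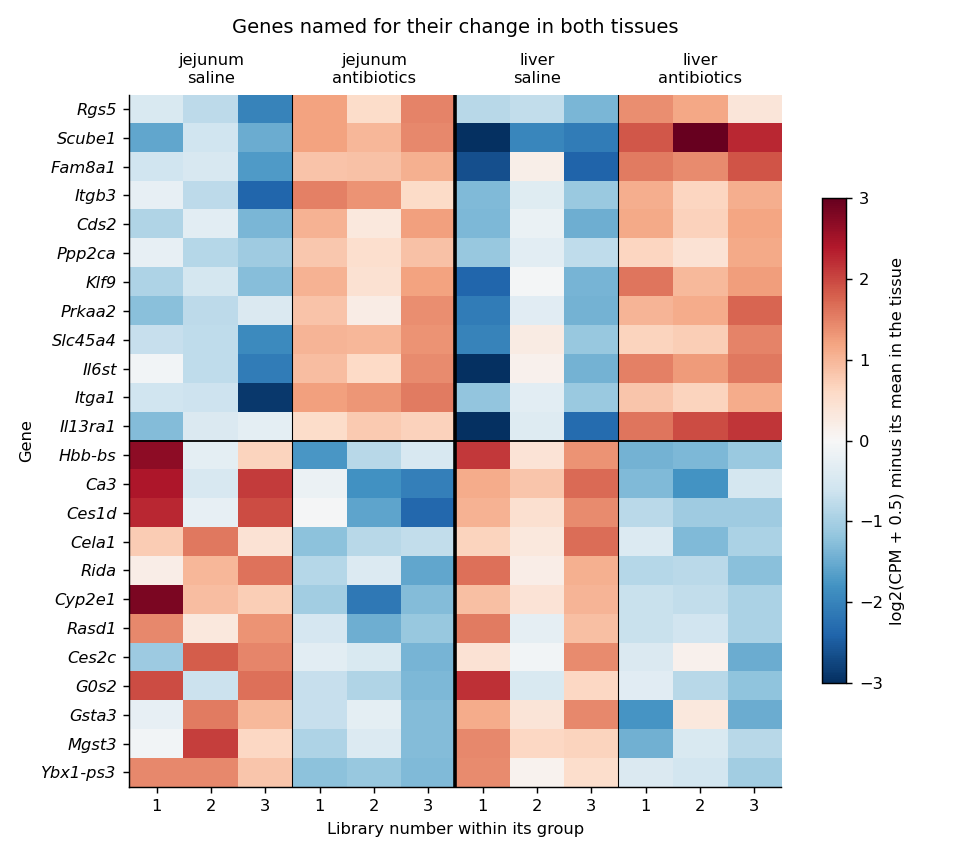
Rows are the 12 rises and 12 falls named for their change in both tissues, and columns the 12 libraries. Colour gives log2(CPM + 0.5) minus the gene's mean over the 6 libraries of that tissue, from -3 (blue) to 3 (red), and the columns change colour between saline and antibiotics in both tissues, with liver saline 2 paler than its group in most rises.

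P450 genes were called in both directions. Of 27 P450 genes of families 1 to 3 tested, 2 rose and 4 fell in each fit, where 6.98% and 6.93% of all genes tested did without gene length and 4.1% and 3.14% after it, with a median log2 change of 0.13 in jejunum and -0.61 in liver. Several of these calls come from 1 tissue. Cyp2c11, the male-specific P450 of rat liver, was at 774, 335 and 417 CPM in saline liver and 47.6, 20.8 and 74.9 CPM with antibiotics (log2 fold change -3.41, SE 0.47, adjusted p = 0.00397, and -3.25, SE 0.48 and 0.0091 after gene length), whereas each jejunal library held 3 reads or fewer. Cyp1b1, an extrahepatic P450 of the aryl hydrocarbon receptor, went from 48.3, 19.9 and 10.5 CPM to 128, 96.8 and 104 CPM in jejunum (log2 fold change 2.07, SE 0.41, adjusted p = 0.00875, and 1.76, SE 0.38 and 0.0179 after gene length) and was at 0.0518 CPM or less in liver. Cyp2b2 went from 9.41, 5.63 and 11.5 CPM to 37.5, 57.9 and 12.2 CPM in liver (log2 fold change 1.96, SE 0.53, adjusted p = 0.028, and 2.12, SE 0.52 and 0.0283 after gene length) and was at 0.212 CPM or less in jejunum. P450 subfamilies hold close copies whose reads may be split.

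The other drug P450 genes chosen for description were not called after gene length. Cyp2d2 was at 1284, 1485 and 1654 CPM and 823, 812 and 833 CPM in saline and antibiotics liver, without overlap, and overlapped in jejunum. It passed without gene length (adjusted p = 0.0331) but not after it (0.0673). The call without gene length was lost on leaving out any 1 of 6 libraries (largest adjusted p = 0.0771). Cyp2b1 was at 22.9, 61.7 and 18.3 CPM and 50.2, 107 and 24.8 CPM in jejunum and 3.32, 0.948 and 2.62 CPM and 9.21, 4.41 and 1.68 CPM in liver, with overlap in both (adjusted p = 0.17). Cyp1a2, a liver enzyme of the aryl hydrocarbon receptor, was at 1365, 474 and 1033 CPM and 1029, 1106 and 605 CPM in liver (adjusted p = 0.797). Por, the reductase that supplies electrons to all of these, was at 105, 104 and 87.4 CPM and 70.0, 99.8 and 52 CPM in jejunum and 76.1, 181 and 159 CPM and 157, 128 and 155 CPM in liver (common log2 change -0.17, SE 0.23, adjusted p = 0.65).

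Among 43 other phase I genes tested 1 rose and 11 fell without gene length, and 1 and 7 after it, where 4.1% and 3.14% of all genes tested did. Their median change was -0.55 in jejunum and -0.32 in liver after gene length, against -0.08 and 0.0035 over all genes tested. Fmo1, a flavin monooxygenase, fell from 6.48, 3.51 and 10.7 CPM to 2.89, 1.41 and 1.44 CPM in jejunum and from 84, 45 and 104 CPM to 30.6, 25.6 and 16.1 CPM in liver, without overlap in either (log2 fold change -1.75, SE 0.30, adjusted p = 0.0067, and -1.76, SE 0.30 and 0.011 after gene length). Akr7a2, an aldehyde reductase, fell without overlap, with log2 changes of -1.59 in jejunum and -0.86 in liver (common adjusted p = 0.0203 after gene length). Aox1, the molybdenum enzyme aldehyde oxidase, was at 551, 417 and 485 CPM in saline liver and 191, 253 and 354 CPM with antibiotics, and its jejunal groups overlapped (log2 fold change -1.32, SE 0.39, adjusted p = 0.037, and -1.57, SE 0.37 and 0.0267 after gene length).

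Every glutathione transferase that was called was lower. Of 25 tested, 0 rose and 10 fell without gene length, and 0 and 4 after it, where 6.93% and 3.14% of all genes tested fell. Called or not, 19 were lower in both tissues before and 18 after. Gsta3 stood at 17.1, 61.4 and 40.5 CPM and 12.6, 16.6 and 8.02 CPM in saline and antibiotics jejunum and at 10.3, 6.07 and 13.1 CPM and 0.97, 5.7 and 1.27 CPM in liver, with no overlap in either (log2 fold change -1.78, SE 0.42, adjusted p = 0.0161, and -1.55, SE 0.40 and 0.036 after gene length). Mgst3, a microsomal member, stood at 32.8, 148 and 54 CPM and 18.1, 25.9 and 13.8 CPM in jejunum and 67.9, 38.5 and 39.9 CPM and 8.79, 18.1 and 13.7 CPM in liver (log2 fold change -1.94, SE 0.34, adjusted p = 0.00697, and -1.44, SE 0.33 and 0.0238 after gene length). Mgst1 and Gstm4 also fell, with common changes of -1.72 (adjusted p = 0.0144, 0.0421 after gene length) and -0.83 (adjusted p = 0.0169 and 0.0387). Library totals alone did not give these 2 calls without gene length. Glutathione transferases have close copies among which reads may be split. These are short genes, with a median length of 1116 bases, and their median change in liver was -0.89 without gene length and -0.63 after it. Of the 1419 genes of 921 to 1353 bases, 196 fell without gene length and 40 after it. Signs matched between tissues, in either direction, in 67.2% of those 1419 before and 60.5% after.

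Of 26 other conjugating enzymes tested, 0 rose and 2 fell without gene length and neither passed after it. Tpmt, which methylates thiopurines, had a common change of -1.08 (adjusted p = 0.0218, 0.0737 after gene length). Inmt, an amine methyltransferase, had -2.40 (adjusted p = 0.0236 and 0.0598). Among 20 targets of the oxidant-responsive factor Nrf2, 1 rose and 5 fell, and 1 and 2 after gene length. Beside both lists, 6.98% of all genes tested rose and 6.93% fell, and 4.1% and 3.14% after gene length. Keap1, the inhibitor of Nrf2, fell, with a change of -0.60 after gene length (adjusted p = 0.0314), and so did Taldo1, of the pentose phosphate path (-0.53, adjusted p = 0.0482).

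Most ABC transporters that were called were higher. Of 39 ABC transporters tested, 7 rose and 1 fell without gene length and 4 and 1 after it, where 6.98% rose and 6.93% fell of all genes tested, and 4.1% and 3.14% after gene length. These are long genes (median 4876 bases), and of the 1419 genes of 4040 to 5241 bases 166 rose and 14 fell without gene length, and 64 and 47 after it. Abcc4, an exporter of conjugates and nucleotides, went from 3.04, 3.6 and 1.9 CPM to 7.76, 8.15 and 8.84 CPM in jejunum and from 2.93, 2.72 and 1.56 CPM to 3.82, 6.53 and 9.0 CPM in liver, without overlap in either (log2 fold change 1.47, SE 0.27, adjusted p = 0.00741, and 1.23, SE 0.26 and 0.0172 after gene length). Abca8, a lipid transporter, rose by 0.86 and 1.04 in jejunum and liver after gene length (common adjusted p = 0.0278), and Abcc1 by 1.58 and 1.38 (adjusted p = 0.0444). Abcc10 was the fall, with -1.89 and -0.66 (adjusted p = 0.0151). Abcc2, the canalicular exporter of glucuronides, was at 80.5, 333 and 168 CPM and 265, 339 and 501 CPM in saline and antibiotics liver, with overlap (common adjusted p = 0.116, 0.366 after gene length). Of 16 organic anion and cation carriers tested, Slco3a1 was the one called, with a common change of 1.34 after gene length (adjusted p = 0.0455).

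Of 28 receptors and partner factors that govern such genes, 1 rose and 5 fell without gene length, and 0 and 5 after it, where 6.98% and 6.93%, then 4.1% and 3.14%, of all genes tested did. The list's median was -0.77 in jejunum and 0.029 in liver, and -0.86 and -0.18 after gene length. Foxa2, a pioneer factor of liver and gut, fell from 1.72, 6.19 and 3.67 CPM to 0.565, 1.52 and 0.817 CPM in jejunum and from 29, 60.8 and 52.6 CPM to 20.5, 19.8 and 26.9 CPM in liver (log2 fold change -1.47, SE 0.33, adjusted p = 0.013, and -1.46, SE 0.33 and 0.0222 after gene length). Cebpa, a factor of hepatocytes and adipocytes, stood at 190.4, 159.9 and 176 CPM and 37.6, 40.8 and 23.6 CPM in jejunum and 466, 506 and 380.2 CPM and 339, 306 and 349 CPM in liver (log2 fold change -1.40, SE 0.33, adjusted p = 0.0165, and -1.46, SE 0.33 and 0.0225 after gene length). Its fall was larger in jejunum, -2.44 against -0.49 after gene length (interaction adjusted p = 0.0458). Pparg, the receptor that drives fat storage, fell in common (-1.63 after gene length, adjusted p = 0.0267), and so did Rxrb, a partner of nuclear receptors (-0.73, adjusted p = 0.0286). The jejunal adipocyte sums, 500.3 to 3034 CPM with saline and 235 to 569 CPM with antibiotics, stand beside Pparg and Cebpa, and their part was not tested. By library totals alone, without gene length, Foxa2, Cebpa and Pparg kept their sign and lost their call.

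Nr1i2 was at 28.1, 46.9 and 53.8 CPM and 15.8, 40.0 and 11.4 CPM in saline and antibiotics jejunum and at 158, 112 and 171 CPM and 79.5, 60.7 and 85.3 CPM in liver, where the groups did not overlap. Its common change was -0.95 (SE 0.28, adjusted p = 0.0378) without gene length and -0.97 (adjusted p = 0.0512) after it. The call of Nr1i2 without gene length was lost on leaving out any 1 of 9 libraries (largest adjusted p = 0.0818). Nr1i3 was at 17.8, 21.2 and 18.3 CPM and 11.9, 23.5 and 8.76 CPM in jejunum and 40.0, 10.4 and 28.4 CPM and 16.3, 12 and 12.6 CPM in liver (adjusted p = 0.153). Of the 10 drug genes chosen for description, 8 were tested, 3 passed without gene length (Cyp2e1, Cyp2d2 and Nr1i2) and 1 passed after it (Cyp2e1). Those that missed it are not thereby shown to be alike in the 2 treatments.

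No single library was needed for the call after gene length of Cyp2c11, Cyp1b1, Fmo1, Abcc4 and Abcc10. Past the threshold, the largest adjusted p in these fits was 0.104 for Cyp2b2 (5 libraries), 0.0522 for Akr7a2 (without jejunal antibiotics 1), 0.0734 for Aox1 (4 libraries), 0.0917 for Mgst1 (10 libraries), 0.0971 for Gstm4 (8 libraries), 0.0762 for Keap1 (7 libraries), 0.106 for Taldo1 (10 libraries), 0.0718 for Abca8 (4 libraries), 0.117 for Abcc1 (9 libraries), 0.1 for Slco3a1 (11 libraries), 0.0614 for Foxa2 (without jejunal antibiotics 3), 0.0649 for Cebpa (2 libraries), 0.0739 for Pparg (5 libraries) and 0.0751 for Rxrb (5 libraries).

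**Figure D4:**
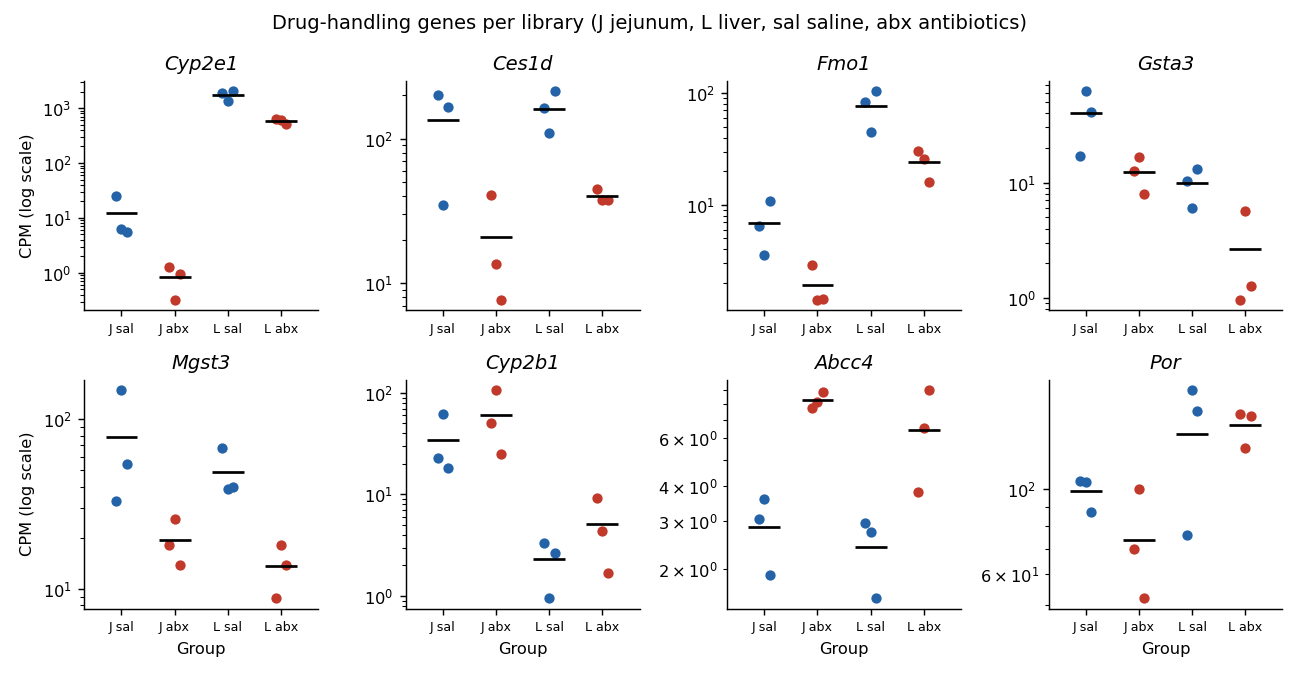
CPM of 8 drug-handling genes in each library (points, log scale, axes differ between genes) with the mean of each group of 3 (lines), for jejunum (J) and liver (L) with saline (blue) and antibiotics (red). Cyp2e1, Fmo1, Gsta3 and Mgst3 are lower and Abcc4 is higher in every antibiotics library of each tissue, Ces1d overlaps in jejunum, and Cyp2b1 and Por overlap in both tissues.

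Of 20 genes of insulin and growth hormone signalling, 4 rose without gene length and 3 after it, against 6.98% and 4.1% of all genes tested, and 0 fell. Stat5b, the transcription factor of the growth hormone receptor, was at 8.13, 6.94 and 6.52 CPM in saline jejunum and 16.4, 16.1 and 16.9 CPM with antibiotics. In liver it was at 8.39, 15.6 and 11.4 CPM and 60.5, 41.3 and 32.3 CPM, and neither tissue overlapped (log2 fold change 1.56, SE 0.22, adjusted p = 0.00397, and 1.51, SE 0.22 and 0.0091 after gene length). Foxo1, a factor that insulin holds in check, went from 7.2, 3.51 and 4.89 CPM to 10.6, 9.23 and 10.9 CPM in jejunum and from 1.58, 4.68 and 2.41 CPM to 13, 10.5 and 15.5 CPM in liver (log2 fold change 1.56, SE 0.31, adjusted p = 0.00916, and 1.53, SE 0.31 and 0.0154 after gene length). Insr, the insulin receptor, went from 17.1, 13.8 and 5.7 CPM to 24.3, 24 and 24.8 CPM in jejunum and from 22, 31.2 and 19 CPM to 71.2, 61.4 and 82.5 CPM in liver (log2 fold change 1.28, SE 0.24, adjusted p = 0.00764, and 0.91, SE 0.22 and 0.0292 after gene length). Igf1r passed without gene length (adjusted p = 0.0271) and not after it (0.0512).

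Of 14 glucocorticoid targets tested, 3 rose without gene length and 2 after it, and 0 fell, against rises of 6.98% and 4.1% of all genes tested. The list's median was -0.035 on the common scale, close to the -0.02 of all genes. Besides Klf9 the call after gene length was Zbtb16, a zinc finger repressor, at 2.11, 1.23 and 0.407 CPM and 6.63, 18.5 and 2.61 CPM in jejunum and 0.554, 1.14 and 1.06 CPM and 14.6, 3.78 and 4.14 CPM in liver (log2 fold change 2.91, SE 0.54, adjusted p = 0.0074, and 2.86, SE 0.53 and 0.0137 after gene length). Fkbp5, the receptor's feedback chaperone, passed without gene length (1.12, adjusted p = 0.0197) and missed the threshold after it (0.0512). Ddit4, a stress-induced mTOR inhibitor, was not called (0.83, adjusted p = 0.108). The 24 genes of cholesterol synthesis and uptake tested had a median change of -0.085 in jejunum and 0.46 in liver. Among them Lss, lanosterol synthase, passed without gene length (adjusted p = 0.0209) and not after it (0.0536).

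Calls after gene length held without any 1 library for Stat5b, Foxo1 and Zbtb16. The largest adjusted p otherwise was 0.075 for Insr (7 libraries).

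Mitochondrial and ribosomal genes that were called all fell, more of them without gene length than after it. Of 71 nuclear genes of the respiratory chain tested, 0 rose and 37 fell without gene length and 0 and 13 after it, and 64 were lower in both tissues before and 40 after. Of all genes tested 6.93% fell without gene length and 3.14% after it. These are lists of short genes, with median lengths of 731 (respiratory chain), 1129.5 (mitochondrial ribosome) and 675.5 bases (cytosolic ribosome). Of the 1419 genes of 53 to 921 bases, 310 fell without gene length and 67 after it. Of the 1419 of 921 to 1353 bases, 196 and 40 fell. Signs matched between tissues, in either direction, in 70.9% of the shorter set before and 61.0% after. Ndufa13, of complex I, was at 73.1, 90.3 and 63.7 CPM and 29.4, 30.4 and 26.4 CPM in saline and antibiotics jejunum and at 195, 82.6 and 144 CPM and 64.3, 64.9 and 42.5 CPM in liver (log2 fold change -1.35, SE 0.21, adjusted p = 0.0049, and -0.82, SE 0.17 and 0.0177 after gene length). Ndufb10 and Ndufv3, also of complex I, fell, with common changes of -0.70 and -0.93 after gene length (adjusted p = 0.0192 and 0.0167). Uqcrb, of complex III, had -1.13 (adjusted p = 0.0213). In each of the 4 the saline and antibiotics libraries did not overlap in either tissue, where 10.5% of all genes tested separated the same way in both. The 4 were chosen for small p-values, which favours such separation, and 1206 of the 1973 genes called without gene length separated this way. The 13 mitochondrially encoded genes were all lower in both tissues, with medians of -0.97 in jejunum and -2.27 in liver, and the jejunal direction rests on saline library 3. Without that library 4 of 13 were lower in jejunum, with a median change of 0.11, and 0 of 13 after gene length, with a median of 0.40, while all 13 stayed lower in liver. By library totals alone, without gene length, 10 of 13 were lower in jejunum. With all 12 libraries 1 was called without gene length and 0 after it by edgeR, while 11 and 4 had an unadjusted p under 0.05 and DESeq2 called 6 and 1. The median change of the nuclear list was -0.65 in jejunum and -0.74 in liver, and -0.32 and -0.38 after gene length, against -0.08 and 0.0035 over all genes.

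The mitochondrial ribosome gave 0 rises and 36 falls of 72 without gene length, and 0 and 11 after it. Mrps36 and Mrps35 fell, with common changes of -1.12 and -0.93 after gene length (adjusted p = 0.0143 and 0.0157), close to their changes without it, -1.05 and -0.94. Mrpl2 and Mrpl15 fell as well (-0.76 and -0.72, adjusted p = 0.022 and 0.0224). The cytosolic ribosome gave 0 rises and 29 falls of 70, and 0 and 7 after gene length, with a median change in liver of -0.51 before and -0.12 after. Rpl28, Rpl11, Rps18 and Rpl35a fell after gene length, with changes of -0.89, -0.93, -0.94 and -1.38 (adjusted p = 0.02, 0.0268, 0.0373 and 0.0382). Ribosomal protein genes have many processed copies, so their reads may be split. By library totals alone, without gene length, of these respiratory and ribosomal genes Rpl35a was called and the others were lower without passing the threshold. After gene length Ndufa13, Ndufv3, Mrps36 and Mrps35 kept their call in all 25 alternative settings.

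The threshold was met after gene length in every fit of 11 libraries for Ndufa13, Ndufv3, Mrps36 and Mrps35. Calls that were lost had a largest adjusted p of 0.0504 for Ndufb10 (without liver antibiotics 3), 0.0549 for Uqcrb (2 libraries), 0.0521 for Mrpl2 (2 libraries), 0.0616 for Mrpl15 (4 libraries), 0.0553 for Rpl28 (3 libraries), 0.0686 for Rpl11 (5 libraries), 0.0918 for Rps18 (8 libraries) and 0.0978 for Rpl35a (8 libraries).

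Of 40 proteasome genes tested, 0 rose and 12 fell without gene length, and 0 and 4 after it, against falls of 6.93% and 3.14% of all genes tested. Of those 4, 3, picked out after their values were seen, belong to the immunoproteasome, the form that interferon induces and that cuts peptides for MHC class I. Psmb9, its beta 1i subunit, stood at 34, 123 and 58 CPM and 12.5, 19.1 and 14.8 CPM in saline and antibiotics jejunum and at 96.5, 54.2 and 76.6 CPM and 32.2, 43.3 and 36.1 CPM in liver (log2 fold change -1.62, SE 0.32, adjusted p = 0.00895, and -1.44, SE 0.32 and 0.0214 after gene length). Psmb10, beta 2i, stood at 34.8, 69.1 and 73.6 CPM and 20.7, 26.1 and 21.3 CPM in jejunum and 62.2, 44.4 and 62.7 CPM and 35.2, 39.3 and 28 CPM in liver (log2 fold change -1.05, SE 0.22, adjusted p = 0.00977, and -0.71, SE 0.20 and 0.0443 after gene length). Psme2, of the 11S activator, stood at 58.5, 103 and 103 CPM and 35.7, 45.8 and 32.5 CPM in jejunum and 117, 65.3 and 96.2 CPM and 51.2, 58.5 and 38 CPM in liver (log2 fold change -1.07, SE 0.21, adjusted p = 0.00852, and -0.84, SE 0.19 and 0.0232 after gene length). None of the 3 overlapped between groups in either tissue, where 10.5% of all genes tested separated the same way in both. The 3 are named because they were called, which favours such separation. Of the 1973 genes called without gene length, 1206 separated this way. Psma4, a constitutive alpha subunit, fell as well (-0.92, adjusted p = 0.0145 after gene length). Psmb8, the beta 5i subunit, fell without gene length (-0.79, adjusted p = 0.0463) and missed the threshold after it (-0.75, adjusted p = 0.075), with jejunal groups that overlapped and livers that did not. Its call without gene length was lost on leaving out any 1 of 10 libraries (largest adjusted p = 0.111). By library totals alone, without gene length, Psmb9 was called and Psmb10, Psme2, Psma4 and Psmb8 were lower without passing the threshold. After gene length Psma4 kept its call in all 25 alternative settings. The proteasome list had a median length of 1519.5 bases. Of the 1418 genes of 1354 to 1669 bases, 181 fell without gene length and 50 after it.

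Tap1, which carries those peptides into the ER, fell after gene length (-1.07, adjusted p = 0.0384), with 59.6, 87.8 and 38.7 CPM and 24.6, 25.5 and 16.5 CPM in jejunum and 33.1, 26.6 and 32.6 CPM and 21.5, 24.1 and 34 CPM in liver. The jejunal groups did not overlap and the livers did, and the tissues were not shown to differ (interaction adjusted p = 0.111). It missed the threshold without gene length (adjusted p = 0.0531). Over the 34 interferon response genes tested, which include Psmb9 and Tap1, 1 rose and 3 fell without gene length and 1 and 2 after it. Shares over all genes tested were 6.98% and 6.93%, then 4.1% and 3.14%. The rise was Xaf1, a pro-apoptotic interferon target (1.77, adjusted p = 0.0258 after gene length).

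Psmb9 and Tap1 lie head to head, with starts 457 bases apart in the GRCr8 assembly of RefSeq. The 250 bases before the start are shown for 4 interferon-related genes called lower after gene length, where the windows of the divergent pair overlap. The 4 were picked after their values were seen, and Tap1 missed the threshold without gene length. All 4 were matched to RefSeq by symbol. Capitals mark matches, on either strand, to the core of the interferon-stimulated response element (ISRE), here GAAA, then 2 bases of any kind, then GAAA. The gamma-activated site, TTCNNNGAA, was searched too and has no match in these 4 windows. The window of Psmb8, the other immunoproteasome subunit, was also searched and holds no ISRE core and 1 gamma-activated site, 245 bases before its start.
Psmb9 (chr20:4668750-4668999, + strand): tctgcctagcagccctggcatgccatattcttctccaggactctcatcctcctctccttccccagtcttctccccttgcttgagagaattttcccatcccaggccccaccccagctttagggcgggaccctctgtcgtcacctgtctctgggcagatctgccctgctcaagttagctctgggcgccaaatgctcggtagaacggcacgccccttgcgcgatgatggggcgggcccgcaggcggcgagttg
Tap1 (chr20:4668544-4668793, - strand): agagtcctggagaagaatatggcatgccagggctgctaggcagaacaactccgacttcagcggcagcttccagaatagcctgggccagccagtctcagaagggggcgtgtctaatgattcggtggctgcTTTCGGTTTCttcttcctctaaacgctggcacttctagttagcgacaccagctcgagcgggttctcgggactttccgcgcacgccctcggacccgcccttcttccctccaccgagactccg
Psmb10 (chr19:50743293-50743542, - strand): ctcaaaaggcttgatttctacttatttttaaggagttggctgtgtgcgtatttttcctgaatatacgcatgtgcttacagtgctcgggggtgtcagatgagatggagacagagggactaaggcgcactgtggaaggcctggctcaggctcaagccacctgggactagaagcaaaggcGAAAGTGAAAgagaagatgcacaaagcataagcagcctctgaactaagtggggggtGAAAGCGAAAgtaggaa
Psme2 (chr15:33052752-33053001, - strand): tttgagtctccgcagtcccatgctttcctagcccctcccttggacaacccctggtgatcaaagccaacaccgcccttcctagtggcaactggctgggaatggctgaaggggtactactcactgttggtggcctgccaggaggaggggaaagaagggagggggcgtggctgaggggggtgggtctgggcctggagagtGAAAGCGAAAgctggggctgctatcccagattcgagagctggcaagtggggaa
Tap1 has 1 match to the ISRE core, 121 bases before its start, Psmb10 has 2, at 73 and 17 bases, and Psme2 has 1, at 53 bases. Psmb9 has none in its own window. Of all 33469 RefSeq promoters, 3.41% hold the ISRE core and 7.67% hold TTCNNNGAA in the same window. These matches describe letters only, and factor binding was not measured.

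Leaving out any 1 of the 12 libraries kept the adjusted p after gene length below 0.05 for Psma4. The largest adjusted p, with the number of libraries whose omission took it past the threshold, was 0.0625 for Psmb9 (2 libraries), 0.105 for Psmb10 (10 libraries), 0.0625 for Psme2 (4 libraries), 0.0929 for Tap1 (7 libraries) and 0.0638 for Xaf1 (3 libraries).

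Lists of long genes held many rises without gene length and few after it. Of 23 large ubiquitin ligases and proteases (median length 9299 bases), 11 rose and 0 fell without gene length, and 2 and 0 after it. Of all genes tested 6.98% rose and 6.93% fell, and 4.1% and 3.14% after gene length. Of the 1419 genes of 5241 to 29464 bases, 235 rose and 9 fell, and 57 and 45 after gene length. Birc6, an inhibitor of apoptosis with ligase activity, kept its call, at 6.21, 6.02 and 5.57 CPM and 21.2, 15.7 and 25.1 CPM in jejunum and 8.46, 10.9 and 7.29 CPM and 20.8, 27.1 and 42.2 CPM in liver (log2 fold change 1.78, SE 0.20, adjusted p = 0.00367, and 1.19, SE 0.17 and 0.0091 after gene length). Ubr1, an N-degron ligase, also kept it (log2 fold change 1.55, SE 0.22, adjusted p = 0.00397, and 1.35, SE 0.21 and 0.0091 after gene length). Huwe1 and Ubr2 lost it: their common change went from 1.11 to 0.52 and from 0.80 to 0.51, with adjusted p = 0.0684 and 0.0561 after gene length.

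Of 25 chromatin and transcription factors with long transcripts, 8 rose and 0 fell without gene length, and 1 rose and 2 fell after it. Over all genes tested the shares were 6.98% and 6.93%, then 4.1% and 3.14%. Ep300, an acetyltransferase, rose in both fits (log2 fold change 1.58, SE 0.37, adjusted p = 0.0152, and 1.53, SE 0.37 and 0.027 after gene length). Kmt2d, a histone methyltransferase gene of 18552 bases, stood at 95.6, 86.7 and 74.5 CPM and 87.5, 93.7 and 90.4 CPM in jejunum and 71.8, 100.1 and 95.9 CPM and 85.5, 88.3 and 102 CPM in liver. These overlap, and its common change was 0.061 (adjusted p = 0.804) without gene length and -0.63 (adjusted p = 0.0366) after it. The call of Kmt2d is thus relative to other genes of its length.

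Among 29 trafficking genes 3 rose without gene length and 2 after it, with 0 falls. Vps13c and Vps13a, bridge proteins that move lipid between membranes, rose by 1.16 and 1.53 in common after gene length (adjusted p = 0.014 and 0.0266). In ER protein folding 3 of 29 rose and 1 fell, and 2 and 1 after gene length. Beside both lists, 6.98% of all genes tested rose and 6.93% fell, and 4.1% and 3.14% after gene length. Atf6, a sensor of unfolded protein, went from 9.45, 11.7 and 6.52 CPM to 18.3, 22.2 and 21.5 CPM in jejunum and from 4.19, 15.4 and 7.15 CPM to 36.7, 34.4 and 53.6 CPM in liver (log2 fold change 1.68, SE 0.31, adjusted p = 0.0074, and 1.44, SE 0.31 and 0.0182 after gene length). Edem1, which extracts misfolded glycoproteins, rose more in liver (2.28) than in jejunum (0.46, interaction adjusted p = 0.0458, after gene length). Fkbp2, an ER prolyl isomerase, fell from 41.4, 54.3 and 35.2 CPM to 5.86, 7.17 and 4.83 CPM in jejunum and from 166, 83.3 and 119 CPM to 64.2, 66.7 and 41.3 CPM in liver (log2 fold change -1.97, SE 0.33, adjusted p = 0.0057, and -1.49, SE 0.30 and 0.0157 after gene length). The list had a median of -0.50 in jejunum and 0.81 in liver.

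In refits without each library in turn, the adjusted p after gene length stayed under 0.05 for Birc6, Ubr1, Vps13c and Fkbp2. For the rest the largest adjusted p was 0.0719 for Ep300 (4 libraries), 0.0906 for Kmt2d (9 libraries), 0.0711 for Vps13a (3 libraries), 0.0514 for Atf6 (without liver saline 3) and 0.0624 for Edem1 (without liver saline 3).

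**Figure D5:**
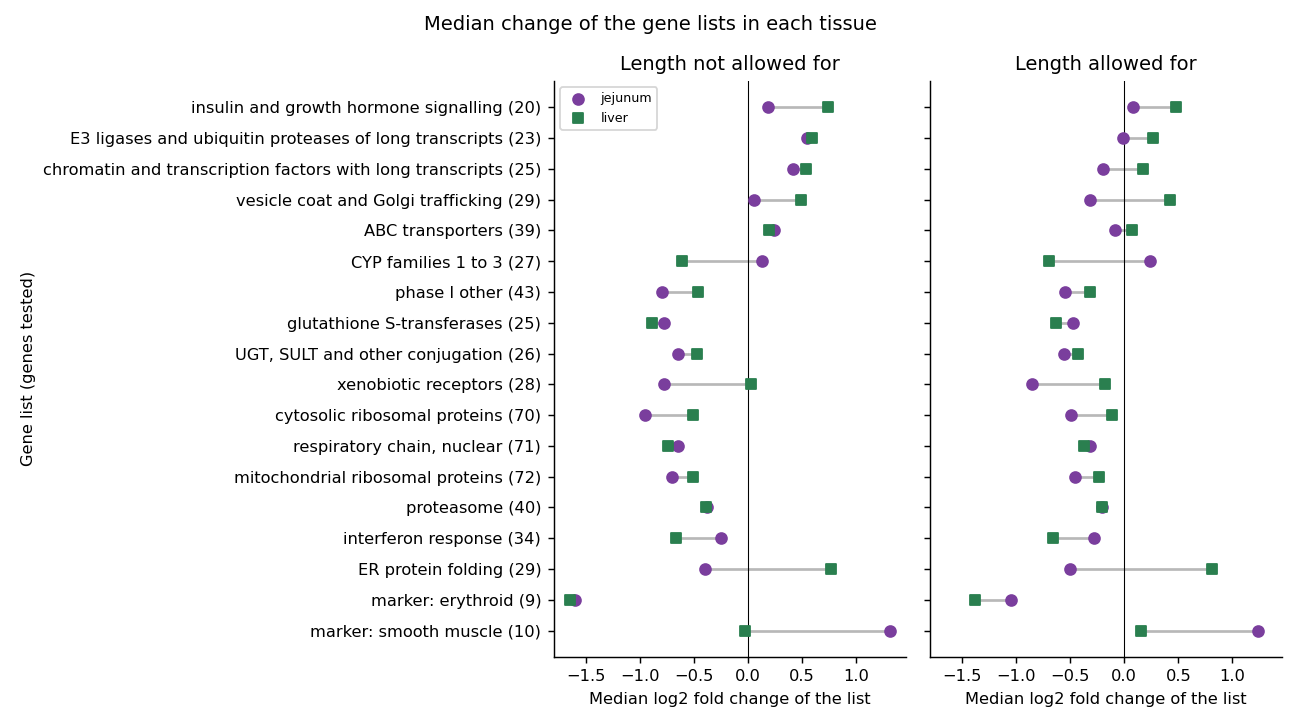
Median log2 fold change in jejunum (circles) and liver (squares) of 18 gene lists, with the number of genes tested, without (left) and with (right) allowance for gene length. Medians of the glutathione transferases, respiratory chain, ribosomes and proteasome lie below 0 in both tissues and lie nearer 0 on the right, those of the ubiquitin ligase list drop from 0.55 and 0.59 to -0.016 and 0.26, and ER protein folding has medians on opposite sides of 0.

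Complement genes, 23 tested, gave 1 rise and 5 falls without gene length and 1 and 2 after it. Over all genes tested 6.98% rose and 6.93% fell, then 4.1% and 3.14%. The list's median without gene length was -0.60 in jejunum and 0.16 in liver. Masp1, a protease of the lectin path, rose in liver from 23.9, 86.8 and 32.9 CPM to 225, 222 and 299 CPM and in jejunum from 0.529, 0.483 and 0 CPM to 3.25, 1.3 and 1.75 CPM (log2 fold change 2.37, SE 0.39, adjusted p = 0.00498, and 2.30, SE 0.38 and 0.00986 after gene length). C4a fell in liver from 70.6, 62.9 and 63.1 CPM to 40.6, 28.3 and 29.6 CPM and, near the limit of detection, in jejunum from 0.859, 1.41 and 0.95 CPM to 0.141, 0.109 and 0.0778 CPM (log2 fold change -1.56, SE 0.32, adjusted p = 0.00957, and -1.81, SE 0.34 and 0.0137 after gene length). C4a has a close copy, C4b, with which reads may be shared. Its jejunal change was the larger after gene length (-3.67 against -1.22, interaction adjusted p = 0.0496). Cfd, complement factor D and an adipocyte product, fell in common (-1.78, adjusted p = 0.0453 after gene length), from 627, 120.4 and 814 CPM to 122, 34.2 and 38.1 CPM in jejunum, where saline library 2 lay just below the highest antibiotics library. It is 1 of the adipocyte markers whose sums are given with Ca3.

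Several regulators outside these groups were also called. Aurka, a mitotic kinase, fell in both fits (log2 fold change -1.55, SE 0.34, adjusted p = 0.0122, and -1.57, SE 0.34 and 0.0193 after gene length). Ccnd1, cyclin D1, fell after gene length only (-0.87, adjusted p = 0.0279). Of 33 cell cycle genes tested, 0 rose and 1 fell without gene length, and 0 and 2 after it. Falls over all genes tested were 6.93% and 3.14%. The list's median was -1.06 in jejunum and 0.67 in liver, and 6 genes had matching signs after gene length. Of 15 p53 targets, Tp53inp1 rose by 1.98 (adjusted p = 0.011) and Sesn2 fell (-0.93, adjusted p = 0.016) after gene length. The list gave 2 rises and 1 fall after gene length, where 4.1% of all genes tested rose and 3.14% fell. Of 24 immediate early genes, Ier2 and Myc fell in both fits, with changes of -0.83 and -1.0 after gene length (adjusted p = 0.0183 and 0.0441). The count of 2 falls in each fit stands beside the 6.93% and 3.14% of all genes tested that fell, and by library totals alone both calls without gene length were lost (adjusted p = 0.265 and 0.276). Of 20 core clock genes 0 were called by edgeR without gene length (3 at an unadjusted p under 0.05) and Hlf was called after it (1.51, adjusted p = 0.0313).

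Markers of immune and muscle cells were checked beside these values. Cd14, the endotoxin co-receptor, passed without gene length (-1.21, adjusted p = 0.0234) and not after it (0.0512). The 9 macrophage markers gave 2 falls without gene length and 0 after it, and summed to 545 to 765 CPM in saline liver, 365 to 452 CPM with antibiotics, and 63.9 to 189.6 CPM and 89.4 to 125 CPM in jejunum. S100a9, of neutrophils, was at 13.5, 7.21 and 11.5 CPM and 19.4, 38.7 and 16.2 CPM in saline and antibiotics liver and at 1.17 CPM or less in jejunum, and was called after gene length (adjusted p = 0.0154). The 6 neutrophil markers tested summed to 24.1 to 34.3 CPM in saline liver and 44.7 to 81.7 CPM with antibiotics. In jejunum they summed to 15.8 to 38 CPM and 12.1 to 18 CPM, the opposite order by median. Mpo, the neutrophil peroxidase, fell in both fits (common change -2.89, adjusted p = 0.0221, and -2.97 and 0.0305 after gene length), with 347, 105 and 90 reads in saline jejunum, 22, 18 and 29 reads with antibiotics and 8 or fewer in every liver library. Over these 6 markers 0 rose and 1 fell without gene length, and 2 and 1 after it. Beside both marker lists, 6.98% of all genes tested rose and 6.93% fell, and 4.1% and 3.14% after gene length. Of 10 smooth muscle markers, Synpo2 and Myocd rose in common (2.05 and 3.21, adjusted p = 0.00697 and 0.00397). In liver both were scarce. Synpo2 was at 0.985 CPM or less and Myocd at 0.182 CPM or less in every liver library.

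No single library was needed for the call after gene length of Masp1, C4a, Tp53inp1, Sesn2, S100a9, Synpo2 and Myocd. Past the threshold, the largest adjusted p in these fits was 0.113 for Cfd (10 libraries), 0.0521 for Aurka (without liver antibiotics 3), 0.0716 for Ccnd1 (4 libraries), 0.0511 for Ier2 (without liver antibiotics 3), 0.104 for Myc (10 libraries), 0.088 for Hlf (7 libraries) and 0.0949 for Mpo (7 libraries).

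Genes that lost the common call when length was allowed for were not all short or long. Of the 6 with the largest change in the tissue where it was smaller, Rps19l2, Mt-atp8, Rpl7a and Angptl8 had been lower and Casd1 and Hsp90aa1 higher. Rps19l2, a ribosomal protein copy of 527 bases, went from -2.13 (adjusted p = 0.00983) to -1.55 (0.0533), and Mt-atp8, which overlaps Mt-atp6 on the mitochondrial genome, from -2.13 (0.0415) to -1.50 (0.125). Without jejunal saline library 3 the change of Mt-atp8 was -1.22 (adjusted p = 0.154) without gene length. Rpl7a went from -1.71 to -1.29 and Angptl8, an inhibitor of lipoprotein lipase, from -1.80 to -1.43, with adjusted p = 0.105 and 0.0921 after gene length. Casd1 and Hsp90aa1, close to the median length, had nearly the same change in both fits, 1.23 and 1.21 for the former and 1.44 and 1.37 for the latter. Their adjusted p went from 0.0492 and 0.0439 to 0.0701 and 0.071. Without gene length, all of these calls but that of Rps19l2 also depended on single libraries. Leaving out any 1 of 9 took Casd1, Hsp90aa1 or Angptl8 past the threshold, any 1 of 8 Mt-atp8 and any 1 of 7 Rpl7a.

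Lists tied to the microbiota gave few shared calls. Of 11 MHC class II genes, 12 bile acid and FXR genes and 9 antimicrobial genes tested, 0 were called by edgeR in either fit, and at an unadjusted p under 0.05 without gene length 1, 3 and 1 of them passed, in that order. After gene length 3, 1 and 0 did. Of 22 microbial sensors, 0 rose and 2 fell without gene length and none was called after it. Among 19 acute phase genes 2 rose and 1 fell, and 1 and 0 after gene length, with a median of 0.19 in jejunum and 1.09 in liver. Of 21 fasting and PPAR-alpha targets 2 rose and 0 fell, and 1 and 0 after gene length, and of 17 lipogenic genes 0 rose and 1 fell, with 0 called after gene length. The share of genes called in these lists is near or below that of all genes tested.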

How the data were processed

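Jejunal and liver RNA of antibiotic-treated and saline-treated rats was sequenced, with 3 libraries in each of 4 groups. Per the submitters' processing notes, CASAVA 1.4, HISAT2 2.0.5 and DESeq2 1.20.0 were used. The counting tool, the use of strand and the genome build are not given in the sources used here. Per the file headers, each deposited table holds count columns, FPKM columns, a log2 fold change and p-values, all made by the authors within 1 tissue. The deposited count columns are a normalized signal (counts divided by a size factor), not raw counts, as their values show. FPKM, the authors' log2 fold changes and the authors' p-values were not used for any result.

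Every value of the count columns (100% within 0.01 of a read) was a whole multiple of a step that is the same for all genes of a library, and dividing by it gave reads. In jejunal saline library 1 and liver antibiotics library 1 that step lies near 1. Total reads per library give the depth, and intervals beyond the spread between libraries were not computed. Genes were joined by identifier. Of the annotated genes 2532 were in the jejunal table only and 1142 in the liver table only. A further 910 unannotated identifiers occur in both tables, 0 of them with the same start, and were not joined.

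The main test was edgeR 4.0.16 (quasi-likelihood) in R 4.3.3 on the recovered reads, with filterByExpr, TMM factors within each tissue, tissue as a block and Benjamini-Hochberg adjustment over all genes tested, threshold 0.05. The planned test assumed counts, and the deposited unit is a normalized signal, so it rests on this recovery. Every adjusted p printed is from edgeR unless another tool is named. For gene length, a lowess trend (span 0.3) of each library's deviation from its tissue mean on log2 of the deposited gene length entered as an offset. A change in each tissue was tested by the larger of the tissues' p-values. The edgeR fits with and without the length offset were run on simulated data. The permutation test and the other tools and settings were not.

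Genes named were the 12 rises and 12 falls with the largest smaller tissue change, at least 5 CPM in each tissue and a call in both fits, up to 4 members with the smallest p of each list described, 10 drug genes, and 6 genes that lost their call with gene length. Genes of these lists named outside that rule were chosen after their values were seen. The members and the lists were chosen with earlier results of these data known. Alternatives were RLE factors, TMM over all libraries, library totals, other filters, DESeq2 1.42.0, limma 3.58.1 (trend, pseudocounts 1 and 5), another span or a straight line for length, leaving out mitochondrial genes, replicate and presumed-rat blocks, and each library left out. Promoter windows are from RefSeq (GRCr8).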

Additional observations from a re-analysis of the deposited data

Results flagged for a closer look

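Of the named genes called in common, 3 had a treatment effect that differed between the tissues by a test of the difference itself, after gene length was allowed for. Cebpa fell by more in jejunum (-2.44 on the log2 scale) than in liver (-0.49), with an interaction adjusted p = 0.0458 by edgeR. C4a fell by more in jejunum (-3.67) than in liver (-1.22), with an interaction adjusted p = 0.0496, on jejunal levels of at most 1.41 CPM. Edem1 rose by more in liver (2.28) than in jejunum (0.46), with an interaction adjusted p = 0.0458, with every antibiotics liver (241, 204 and 178 CPM) above every saline liver (highest 52.2 CPM) and with 14.1, 16.3 and 14.5 CPM and 20.9, 25.8 and 20.7 CPM in saline and antibiotics jejunum. Without gene length the same test gave 0.0552 for each of the 3 genes, which missed the threshold of 0.05. In all 3 the sign was the same in both tissues.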

How the results depend on the processing

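The count of 1973 shared calls was 597 with library totals alone, 3126 with DESeq2 and 3411 by limma-voom with libraries of 1 treatment and number taken as 1 rat. After gene length, 1027 calls were 2260 with DESeq2 and 2474 with that presumed rat as a block. DESeq2 called 97 genes in both tissues and 34 after gene length, where edgeR called 0. The cause of these differences was not tested. With each library left out in turn the counts ran from 1008 to 2091, from 361 to 1209 after gene length, and 0 throughout for both tissues. The slope on gene length ran from 0.184 to 0.219. Over 228 results for named genes and 5448 comparisons with another setting, direction and side of the threshold held in 4797, the call was lost in 522 and gained in 127, and the sign of the change turned in 2. Por turned to 0.026 with library totals alone (cause not tested). Cyp1a2, which was not called (0.20), ran from -0.019 without liver saline library 2 to 0.53 without liver saline library 1 over the fits that leave out 1 library, and reached 0.62 with library totals alone.

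Replicate numbers are shared between groups, but the correlations were not over 0.1 in every pair, so the samples were taken to share only a number. Same-numbered saline and antibiotics libraries had correlated deviations of 0.13, 0.19 and 0.07 in jejunum and 0.06, -0.09 and -0.11 in liver. Jejunum and liver libraries had 0.03, 0.03 and 0.0015 with saline and 0.05, 0.06 and 0.13 with antibiotics. Every library correlated best with its own number between saline and antibiotics jejunum, and between jejunum and liver with antibiotics, which is a hint from the data and not the design. That did not hold in the other comparisons. With the number as a replicate block 1611 genes were called, 681 after gene length and 0 in both tissues. The estimated correlation within the presumed rat was -0.074, and -0.091 after gene length, in the fit with 1 common effect, and 0.066 and 0.052 in the fit of the 4 groups.

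Depth limits low genes most in jejunal saline library 3, which had 3510319 reads outside the mitochondrially encoded genes.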

Other observations

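Shared calls in several stress and housekeeping lists are given as rises and falls without gene length and then after it. Of 28 ATF4 targets, 0 rose and 2 fell, then 0 and 1. Of 21 heat shock genes, 2 rose and 1 fell, then 0 and 0, and of 30 lysosomal genes 3 rose and 2 fell, then 1 and 1. Thyroid hormone targets, 10 tested, gave 2 rises and 1 fall, then 1 and 0. Of 19 NF-kB targets 1 rose and 0 fell, and of 16 iron genes 0 rose and 1 fell, with no call in either list after gene length. Over all genes tested the shares are 6.98% and 6.93%, then 4.1% and 3.14%.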
